A study of Mus musculus with 9 samples.

Results

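Gene expression in the cortex of mice with experimental autoimmune encephalomyelitis (EAE) was compared with that of naive mice across all genes with enough reads. In EAE, which serves as a rodent model of multiple sclerosis, the immune system attacks myelin. The comparison took 6 of the 9 brain samples of the study, 3 from mice with EAE that received no compound and 3 from naive mice. The other 3 came from mice with EAE given Au18(L-NIBC)14. They entered the filter on low counts, the scaling and the estimate of the spread, but not the comparison itself. The tissue was cortex per the extraction protocol, and poly(A) RNA was sequenced in bulk. The sources used here do not give the strain, sex, age, immunising agent, clinical stage or time of collection. The labels number the samples 1 to 3 in each group as separate brains and say no more, so that p-values measure only the spread between these samples. Of 34714 gene symbols in the table, 18644 passed the filter on low counts and were tested, with 26972179 to 45243553 counts per library. Levels are CPM, each gene's counts scaled to a fixed library total and not divided by gene length, so levels of different genes are not compared.

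T cells reactive to myelin recruit monocytes and other leukocytes, mainly into the spinal cord, the cerebellum and the meninges, while the cortex is usually less infiltrated. Astrocytes and microglia respond to cytokines at a distance from lesions. Sick animals eat less and have raised corticosteroid hormones, which act on many brain cells through the glucocorticoid receptor. The brain makes its own cholesterol, under the control of the sterol-sensing transcription factor encoded by Srebf2, and exports the excess through transporters such as the product of Abca1. Since the RNA came from whole tissue, fewer cells of a type and less RNA per cell cannot be told apart.

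Promoter stretches of 4 called genes are printed because each holds a motif of a regulatory system whose genes are described here: a full glucocorticoid response element in Sgk1, a sterol regulatory element in Hmgcs1, and the core of a forkhead (FOXO) site in Txnip and Adipor2. All lie before a start that RefSeq lists, are written 5′ to 3′ on the gene's own strand and come from RefSeq for GRCm38.p6, with the motif in capitals. The stretches are chr10:21993661-21993755 (plus strand, motif from 189 bases before one of the 6 starts listed for Sgk1), chr13:119690174-119690262 (plus strand, 137 bases before the start), chr3:96557796-96557882 (plus strand, 121 bases before) and chr6:119388860-119388946 (minus strand, 172 bases before the one start listed in the promoter table for Adipor2). The starts used for Sgk1 and Adipor2 lie inside the annotated spans of these genes, at 21882184 to 21999903 and 119353150 to 119417699.
Sgk1: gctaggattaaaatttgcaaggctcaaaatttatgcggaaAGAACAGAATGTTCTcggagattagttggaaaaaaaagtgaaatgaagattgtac
Hmgcs1: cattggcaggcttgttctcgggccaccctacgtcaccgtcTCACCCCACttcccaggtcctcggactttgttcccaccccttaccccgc
Txnip: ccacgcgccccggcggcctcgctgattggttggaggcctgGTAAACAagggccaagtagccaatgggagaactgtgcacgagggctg
Adipor2: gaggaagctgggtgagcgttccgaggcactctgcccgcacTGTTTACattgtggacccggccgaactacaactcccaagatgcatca

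Promoters of 250 bases before to 50 after the start were available for 14637 of the tested genes and 138 of the called ones. On either strand, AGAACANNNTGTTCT occurred in 1 of the 14637 genes (0.00683%), which was Sgk1. TCACCCCAC occurred in 92 genes (0.629%), in 1 of 29 genes called lower (Hmgcs1) and in 0 of 109 called higher. GTAAACA occurred in 3.31% of all genes, in 4 of 109 called higher (3.67%) and in 1 of 29 called lower (3.45%). Adipor2 carries it on the other strand, as TGTTTAC. One arm of the glucocorticoid element, AGAACA, was in 16.5% of all genes, 15.6% of those called higher and 17.2% of those called lower. The E-box CACGTG was in 10.5% of all genes, 14.7% of those called higher and 17.2% of those called lower. A match describes letters in this window and is not a measured binding site.

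Across the genome, 184 genes passed edgeR's quasi-likelihood test at a Benjamini-Hochberg adjusted p under 0.05, which is 0.987% of those tested. They are referred to as called. Of them, 137 were higher in EAE (0.735% of tested genes) and 47 were lower (0.252%). The rises were larger than the falls, with a median log2 fold change of 1.01 among genes called higher and -0.61 among those called lower, and 70 higher against 11 lower genes had an absolute log2 fold change above 1. The median log2 fold change of all tested genes was -0.01, with the 5th and 95th percentiles at -0.51 and 0.77. The 2 groups did not overlap, with every EAE library above every naive one, in 12.2% of genes, and with every EAE library below in 11.8%. All 184 called genes had groups that did not overlap. The shares of 12.2% and 11.8% are the background for each count of genes without overlap given for a list or family. For each count of called genes in a list or family the background is 0.735% higher, 0.252% lower and 0.987% in either direction.

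**Figure D1:**
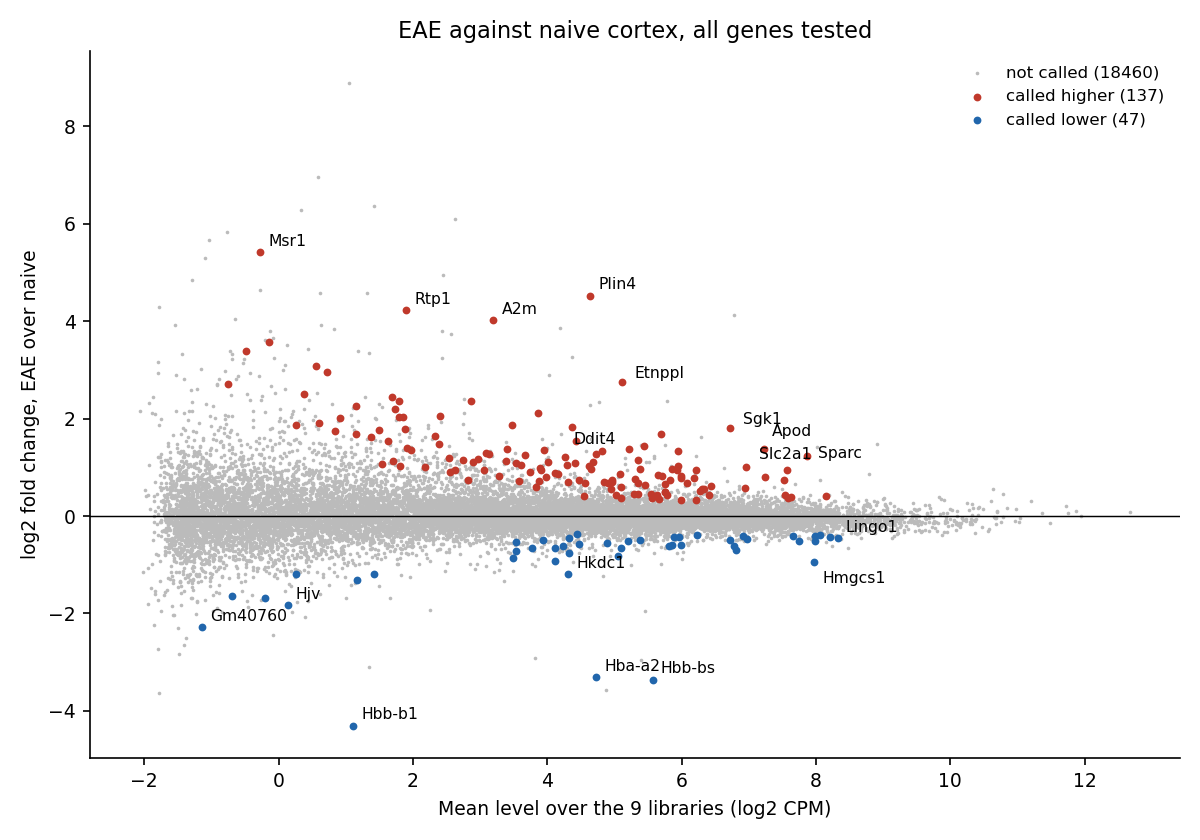
Log2 fold change of EAE over naive cortex (vertical axis) against the mean level over the 9 libraries in log2 CPM (horizontal axis, a log scale), with 1 point per tested gene. The 137 genes called higher (red) reach larger fold changes than the 47 called lower (blue), apart from the globin genes Hba-a2, Hbb-bs and Hbb-b1, and many uncalled genes (grey) of low level have fold changes as large.

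How many genes passed depended on single libraries. Without naive library 1, 2 or 3 the edgeR count fell to 2, 7 or 19, and without EAE library 2 or 3 to 34 or 52, while it was 252 without EAE library 1. Each of the 184 genes kept its direction and an unadjusted p under 0.05 in all 6 of these fits. The genes were chosen on the same libraries and had groups that did not overlap, so this is no independent support for the calls. Only Ddit4 and Rtp1 kept their call in all 6 fits. With only the 6 EAE and naive libraries in the edgeR fit, 174 of 18128 genes were called. Of the 184 genes, 132 were among them and 52 did not pass without the treated libraries. With DESeq2, 1051 genes were called, 5.68% of those with an adjusted p, the 184 among them, and with limma-voom 122, or 0.654%. At an unadjusted p under 0.05, the edgeR test gave 1757 genes higher and 1300 lower. Calls were spread over levels: 4 higher and 3 lower of 2928 genes with a mean under 1 CPM, 56 and 20 of 5213 at 16 to 64 CPM, and 1 and 3 of 715 in the highest class of level. In all, 590 genes, called or not, had a log2 fold change above 1 and 207 one below -1. Among protein-coding genes 174 of 15503 were called, 1.12%, and among long noncoding RNA genes 10 of 3096, 0.323%.

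By textbook function, 131 of the called genes could be given a role, assigned after the calls were known. A direction shared within a set may therefore come in part from how the sets were drawn. The largest of these sets was that of signalling and transcription regulators, with 19 genes higher and 2 lower. Ddit4, an inhibitor of the growth kinase complex mTORC1, was at 25.5, 27.3 and 28.1 CPM in the naive libraries and at 71.1, 80.2 and 67.8 CPM in the EAE libraries. Sgk1, a kinase induced by serum and glucocorticoids, was at 55.9, 49.8 and 58.5 CPM in naive and at 206, 162 and 205 CPM in EAE. Both stood far outside the naive range in every EAE library, EAE library 1 included.

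Transcription factor genes of the same set rose as well. Cebpd, whose product acts in acute phase responses and fat cell formation, was at 2.03, 2.16 and 2.38 CPM in naive and at 7.14, 9.44 and 10.6 CPM in EAE. Klf15, a regulator of amino acid and fat use that glucocorticoids induce, was at 27.6, 29.8 and 36.1 CPM in naive and at 61.2, 57.6 and 62.9 CPM in EAE (log2 fold change 0.96, SE 0.12, edgeR adjusted p = 0.0118). Hif3a, a member of the hypoxia-inducible factor family, went from 4.62 to 8.62 CPM in naive to 22.9 to 32.0 CPM in EAE. Cebpa (1.05), Rxra (0.45), a partner of many nuclear receptors, Tead3 (1.07) and Klf13 (0.37) were higher too, as was Zfp189 (1.12), a zinc finger gene.

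Inhibitors and feedback regulators formed another group among these regulators. Nfkbia and Nfkbiz, which encode inhibitory and modulatory IkB proteins, rose by 1.22 and 0.82 on the log2 scale. Fkbp5, a co-chaperone of the glucocorticoid receptor, was at 30.9, 29.7 and 23.0 CPM in naive and at 92.8, 102 and 75.3 CPM in EAE. The arrestin-domain genes Txnip (1.27) and Arrdc2 (1.83), of which the first limits glucose uptake, and Tob2 (0.69), a gene of an antiproliferative protein, were also higher. Ahr, the aryl hydrocarbon receptor gene, was at 13.2, 13.2 and 14.0 CPM in naive and at 9.90, 8.47 and 9.48 CPM in EAE, and Zbtb46 (-0.49) was the other fall in this set.

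Genes of lipid storage, lipid breakdown and other lipid metabolism were the next group, with 17 called higher and 1 lower. Plin4, which coats lipid droplets (chromosome 17, 56100587 to 56109948), was at 2.68, 2.46 and 2.83 CPM in naive and at 65.2, 62.5 and 56.5 CPM in EAE. Pnpla2, the first lipase of triglyceride breakdown (chromosome 7, 141455188 to 141460743), was at 17.2, 15.7 and 18.0 CPM in naive and at 35.9, 36.6 and 31.9 CPM in EAE. The 3 EAE libraries lay close together for both genes, and neither group's range came near the other's.

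Further along fat metabolism, Angptl4, a secreted inhibitor of lipoprotein lipase, rose by 2.03 (SE 0.35, edgeR adjusted p = 0.0334), and Ucp2, a mitochondrial carrier, was at 13.2, 13 and 9.79 CPM in naive and at 29.9, 45.4 and 30.5 CPM in EAE. Etnppl, an enzyme of astrocytes that breaks down phosphoethanolamine, was at 8.87, 10.7 and 13.2 CPM in naive and at 64.3, 68.4 and 87.4 CPM in EAE (chromosome 3, 130617448 to 130635750; log2 fold change 2.75, SE 0.43, edgeR adjusted p = 0.0334). Adipor2, an adiponectin receptor gene, rose by 0.78, Pnpla7 by 0.68 and the ceramide-handling genes Acer2 and Smpd2 by 0.94 and 0.61. Mfsd2a, a transporter of lipids carrying docosahexaenoic acid at the blood-brain barrier, rose by 1.12 and Apod, a lipid carrier, by 1.38. Ephx2, an epoxide hydrolase gene, was the single fall (-0.65). Of 35 tested genes of mitochondrial fat oxidation and ketone bodies, 1 was called, Ucp2, and the median was 0.05, with the carnitine transferase gene Cpt1a at 0.16 (95% interval -0.17 to 0.49).

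Sterol genes split by role. The 11 that were lower encode synthesis enzymes, the sterol carrier of Stard4 and the factor of Srebf2. Hmgcs1, an early synthase (chromosome 13, 119690351 to 119708260), was at 310, 303 and 317 CPM in naive and at 156, 171 and 158 CPM in EAE. Sqle, the squalene epoxidase gene, was at 60.6, 64.2 and 66.0 CPM in naive and at 41.2, 41.8 and 41.5 CPM in EAE. The 3 EAE libraries lay far below every naive one for Hmgcs1 and nearly coincided for Sqle. Srebf2 fell by 0.38 and late enzymes of the pathway, Dhcr7, Nsdhl and Cyp51, by 0.56 to 0.60 on the log2 scale.

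Of the same system, Fdps (-0.46) and Insig1 (-0.55), an enzyme and a sensor-binding protein gene, did not pass (edgeR adjusted p = 0.0582 and 0.0771), although their groups did not overlap. In the other direction, Abca1 (chromosome 4, 53030789 to 53159988) was at 40.8, 46.4 and 49.6 CPM in naive and at 82.7, 108 and 87.1 CPM in EAE, and Srebf1, the related factor gene of fatty acid synthesis, rose by 0.52 (SE 0.091, edgeR adjusted p = 0.0343). Abcg1, the other main exporter gene, was at 0.17 (95% interval -0.04 to 0.38) and Fasn, the fatty acid synthase gene, at -0.04 (-0.20 to 0.13).

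**Figure D2:**
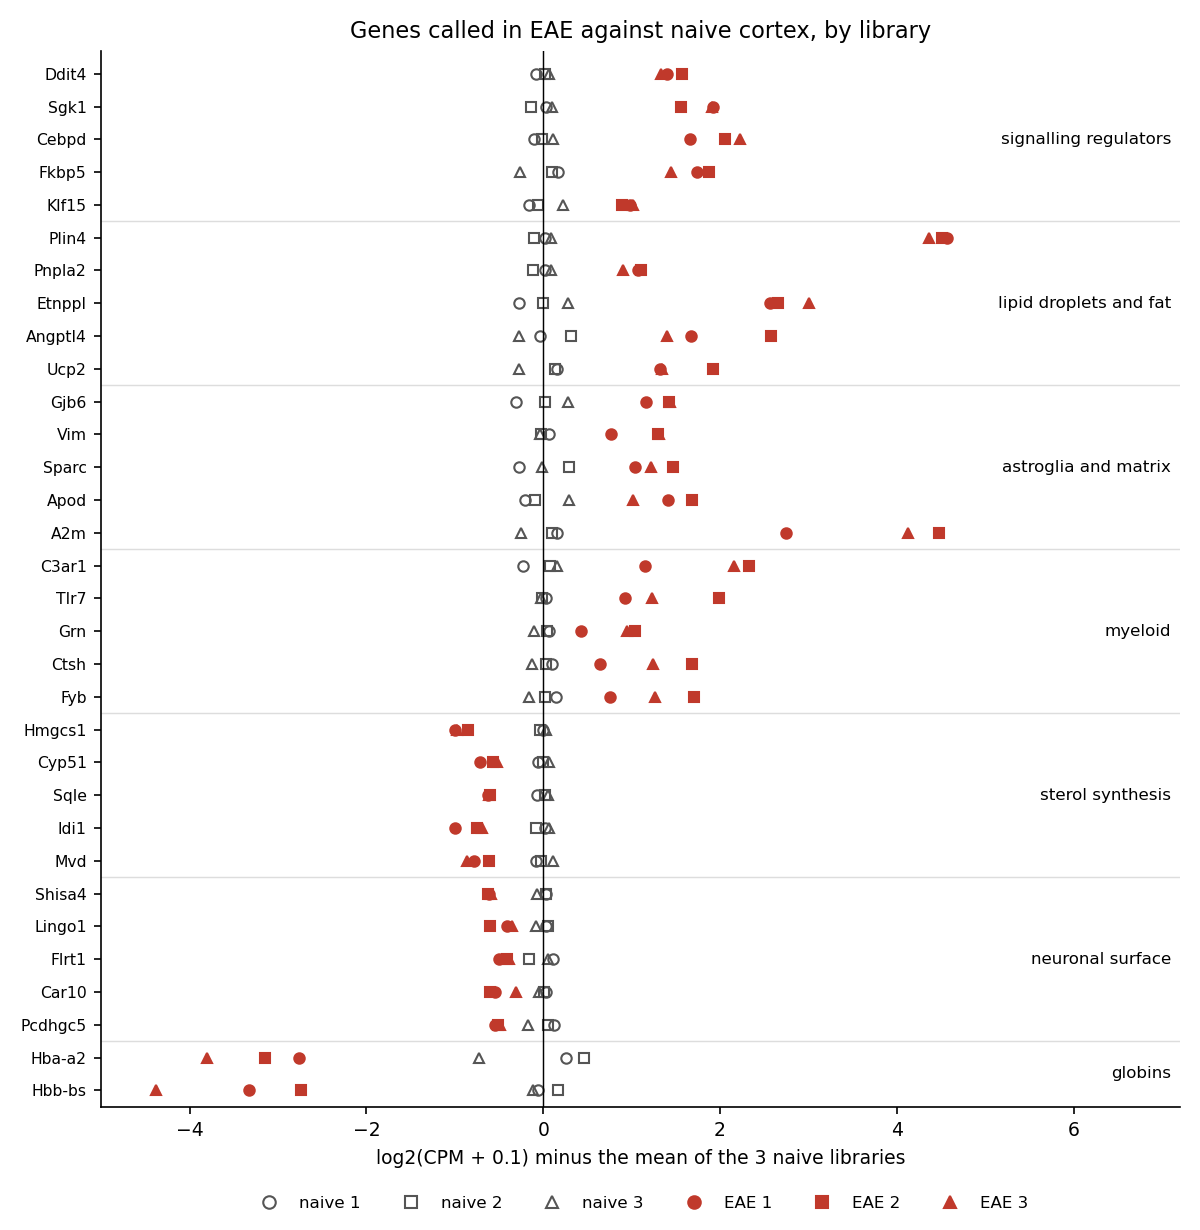
Levels of 32 called genes in each naive (open symbols) and EAE library (filled), as log2(CPM + 0.1) minus the mean of the 3 naive libraries, grouped by role. The EAE libraries agree closely for regulators, Plin4 and sterol synthesis, whereas for the myeloid genes EAE library 1 (circles) lies nearest to naive in each of the 5 rows.

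Transport and use of glucose and amino acids gave 8 rises and 3 falls. Slc2a1, the glucose carrier of brain endothelium and glia (chromosome 4, 119108745 to 119137330), was at 80.1, 92.6 and 87.5 CPM in naive and at 139, 209 and 172 CPM in EAE. Hk2, an inducible hexokinase gene, was at 4.56, 3.85 and 4 CPM in naive and at 6.52, 12.1 and 8.89 CPM in EAE. In contrast Hkdc1, another hexokinase-family gene, was at 30.0, 20.4 and 23.2 CPM in naive and at 10.7, 9.87 and 11.6 CPM in EAE. Among amino acid genes, Slc38a2 (0.81), a glutamine carrier, Gpt2 (0.55), an alanine transaminase, and Prodh (0.75), the first enzyme of proline breakdown, rose, as did the polyamine-breakdown genes Sat1 (0.85) and Smox (0.83). Slc16a7, a lactate and pyruvate carrier gene of neurons, fell by 0.48 and Lhpp, a phosphatase gene, by 0.86 on the log2 scale.

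Among hypoxia response genes more rose than fell. Of 29 tested, 5 were called higher (Ddit4, Hif3a, Slc2a1, Angptl4 and Hk2) and 0 lower, and the list median was 0.11. In 12 of the 29 every EAE library was above every naive one and in 4 below. Over all tested genes 0.735% were called higher, and the shares without overlap were 12.2% above and 11.8% below. The count below is thus near the share over all genes. Among those above without passing were Egln2 (0.29), Kdm3a (0.34) and Mxi1 (0.43). On the other side of 0, also without passing, Apln, a vessel-growth peptide gene, was at 33.9, 33.5 and 37.8 CPM in naive and at 13.3, 14.7 and 16.8 CPM in EAE (log2 fold change -1.23, edgeR adjusted p = 0.0775). Vegfa was at -0.44 and Ldha at -0.42 (edgeR adjusted p = 0.105 and 0.103), and Kdr, a receptor for the product of Vegfa, at -0.67 (edgeR adjusted p = 0.0775). In Apln, Vegfa, Ldha and Kdr, the last of which is not in the hypoxia list, every EAE library was below every naive one.

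Astroglial, matrix and acute phase genes were called higher in 14 cases and lower in 2. Gjb6, the astrocyte gap junction gene connexin 30 (chromosome 14, 57123301 to 57133611), was at 30.8, 38.5 and 46.2 CPM in naive and at 85.2, 102 and 103 CPM in EAE. Vim, an intermediate filament gene of reactive glia and vessel cells, was at 28.4, 26.8 and 26.6 CPM in naive and at 46.6, 67.0 and 67.5 CPM in EAE, the lowest value being that of EAE library 1. Sparc, a matrix protein gene (chromosome 11, 55394159 to 55420080), was at 127, 188 and 152 CPM in naive and at 316, 425 and 360 CPM in EAE.

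Within this set, Itih3 (1.38), Lrg1 (2.35) and A2m (4.03), which encode plasma-type proteins, and Sdc4 (0.95), Fn1 (0.96), Htra1 (0.73), Plat (0.55) and Col5a3 (1.38), of the matrix and its turnover, rose. Neurocan and CSPG5, chondroitin sulfate proteoglycans of the perineuronal matrix, went the other way: Ncan was at 296, 297 and 258 CPM in naive and at 189, 224 and 187 CPM in EAE, and Cspg5 at 326, 333 and 334 CPM in naive and at 224, 258 and 251 CPM in EAE. Gfap, the usual marker of reactive astrocytes, was at 99.6, 173 and 210 CPM in naive and at 262, 628 and 402 CPM in EAE. Its groups did not overlap, yet it did not pass (log2 fold change 1.42, SE 0.37, edgeR adjusted p = 0.108), since it varied within both groups. General astrocyte markers had 1 of 16 called (Gjb6), a median of 0.04, which was -0.06 without EAE library 2, and summed levels of 7035 to 8004 CPM in naive and 7006 to 9573 CPM in EAE.

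All 18 called genes of the myeloid and immune set were higher. C3ar1, the receptor gene for complement fragment C3a, was at 1.32, 1.65 and 1.76 CPM in naive and at 3.6, 8.28 and 7.33 CPM in EAE. Tlr7, a sensor of single-stranded RNA (chromosome X, 167303380 to 167330574), was at 3.31, 3.19 and 3.17 CPM in naive and at 6.23, 13.1 and 7.68 CPM in EAE. Grn, the lysosomal progranulin gene (chromosome 11, 102430507 to 102436809), was at 50.1, 49.2 and 44.6 CPM in naive and at 64.3, 98.1 and 92.8 CPM in EAE. All 3 genes share a pattern in which EAE library 1 was the lowest of its group.

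Receptors for uptake of debris were part of the set, with Mertk (0.78), a phagocytic receptor of astrocytes and microglia, Stab1 (0.96), a scavenger receptor of border macrophages, and Msr1. Msr1 had no counts in naive libraries 1 and 2 and 0.138 CPM in naive library 3, against 0.617, 1.52 and 3.58 CPM in EAE, so its fold change rests on very few counts. Fas, the death receptor gene, rose by 1.63 and Gimap6, a gene of lymphocytes and endothelium, by 1.01. Marker lists of myeloid types had 1 gene called for monocytes, 1 for border macrophages and 0 of 16 for microglia. Monocyte markers summed to 6.64 to 7.29 CPM in naive and to 13.4, 47.3 and 122 CPM in EAE libraries 1, 2 and 3, border macrophage markers to 23.7 to 25.5 and 38.1, 73.8 and 45.6 CPM, and microglia markers to 451 to 551 and 495, 985 and 655 CPM, where EAE library 1 lay within the naive range. The part of cell numbers in the myeloid calls was not tested.

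Pathway lists of phagocytes showed the same direction over many genes with few calls. Of 37 tested genes of Fc receptors, scavenger receptors and phagocytosis, 3 were called higher and 0 lower, 34 lay above 0 and 22 had EAE libraries wholly above naive ones, with a median of 1.04 against -0.01 for all genes. Of 24 Toll-like receptor and adaptor genes, 2 were called higher (Tlr7 and Tlr13), 21 lay above 0 and the median was 0.62. Over all tested genes 0.735% were called higher and 12.2% had EAE libraries wholly above naive ones. Among lysosomal proteins, 39 of 40 genes lay above 0, the median was 0.22, and Grn and the cathepsin gene Ctsh were called. The cathepsins illustrate the range, Ctsd being at 293, 282 and 274 CPM in naive and at 329, 432 and 440 CPM in EAE, and Ctss at 44.3, 48.7 and 37.1 CPM in naive and at 65.1, 188 and 145 CPM in EAE (edgeR adjusted p = 0.0646 and 0.0713).

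The acid pump and the self-digestion machinery, which work with the lysosomal enzymes, lay near or below 0. The 18 vacuolar proton pump subunits had 0 calls, 4 members above 0 and a median of -0.09, and the 37 autophagy genes 0 calls and a median of -0.02. Lists of cell upkeep, which held no ribosomal protein genes, had medians close to 0. Citrate cycle and pyruvate entry had 0 of 35 called and 7 above 0 (median -0.09). Aminoacyl-tRNA synthetases had 0 of 20 called and 2 above 0 (median -0.09), and the proteasome 0 of 32 called and 16 above 0 (median -0.00091). Every EAE library was below every naive one in 7, 6, 12, 7 and 3 genes of these 5 lists, in the order given. Every EAE library was above in 1, 7, 2, 0 and 3. Over all tested genes these shares were 11.8% and 12.2%, so small falls without overlap were frequent in the pump, citrate cycle and synthetase lists. At an unadjusted p under 0.05 stood 4, 6, 6, 5 and 2 genes in the same order. DESeq2 called 1 proton pump gene higher and 1 lower, 2 autophagy genes lower, 1 citrate cycle gene higher and 0 genes of the other lists, and limma-voom called 0 in each. Gars, the glycyl-tRNA synthetase gene, had the smallest p of its list and was at -0.26 (95% interval -0.43 to -0.08, edgeR adjusted p = 0.152).

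Iron handling had 1 of 29 genes called and 14 with EAE libraries above naive ones (median 0.12). Over all tested genes these shares were 0.987% and 12.2%. Heph, a copper ferroxidase of iron export, was at 3.89, 4.95 and 5.65 CPM in naive and at 10.5, 9.41 and 11.4 CPM in EAE. Its relative Cp, ceruloplasmin, was at 12.8, 15 and 15.6 CPM in naive and at 28.8, 53 and 26.6 CPM in EAE, and Hmox1, which frees iron from haem, at 3.58, 2.57 and 3.55 CPM and 5.32, 6.66 and 6.29 CPM. Neither Cp nor Hmox1 passed (edgeR adjusted p = 0.0605 and 0.0634). Insulin and PI3K-AKT-FOXO signalling had Sgk1 called among 39 genes and a median of 0.08, with the receptor gene Igf1r (0.40) and the adaptor gene Irs2 (0.51) above naive in every EAE library but not called.

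**Figure D3:**
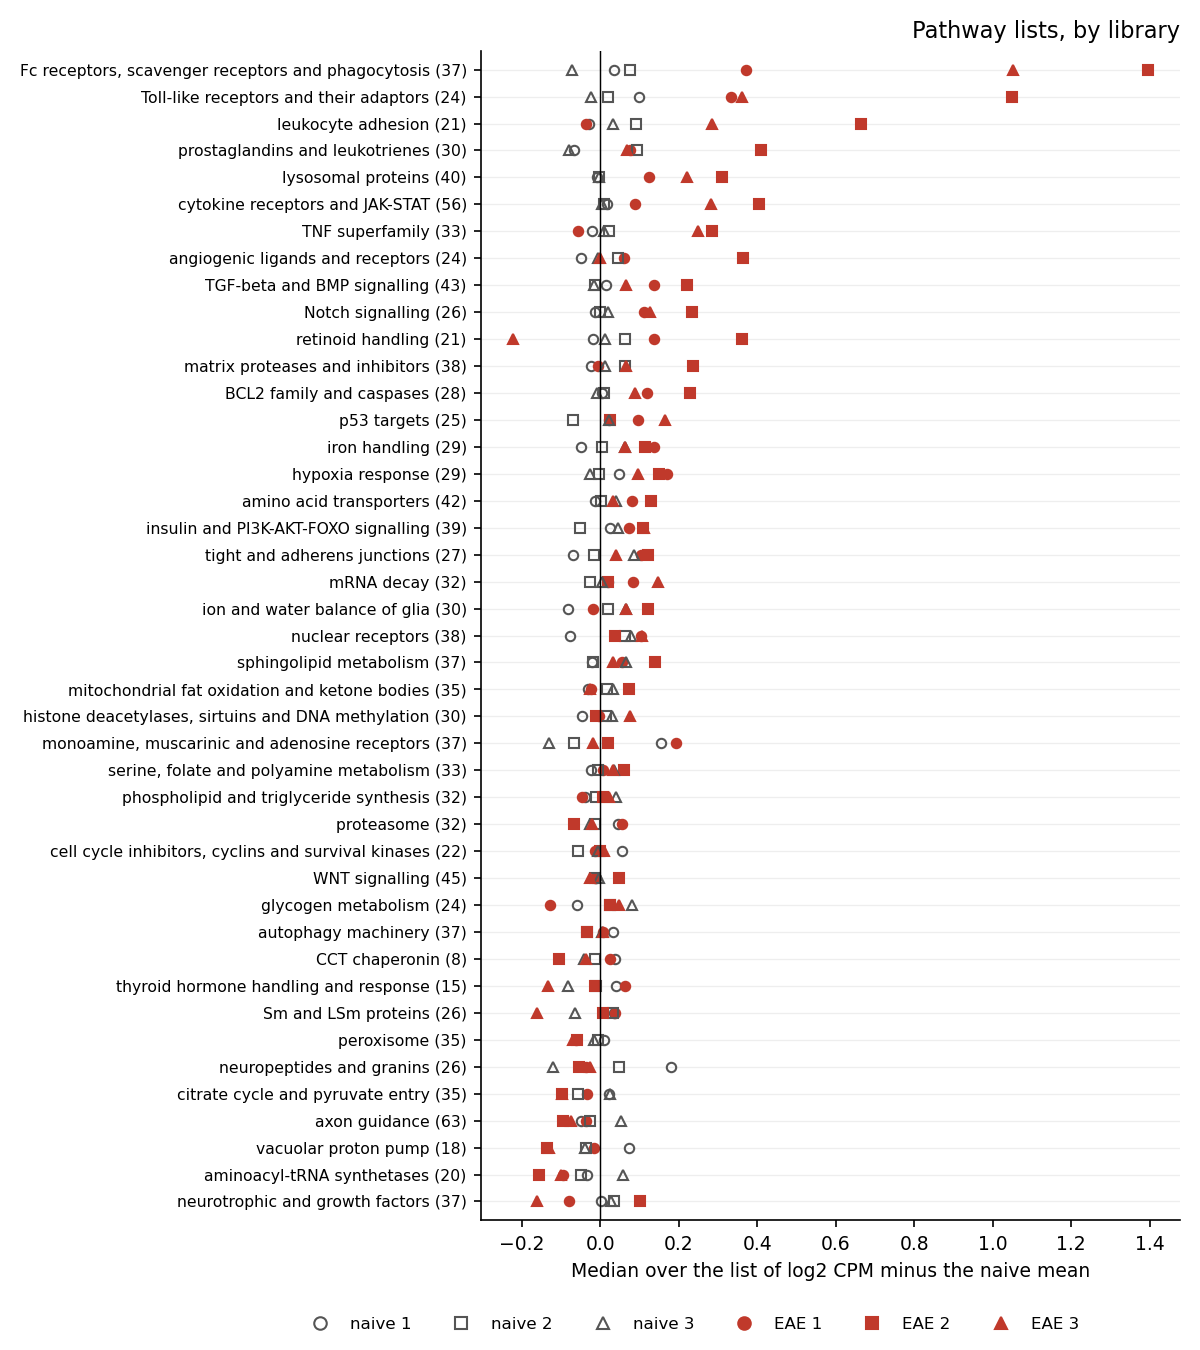
Median over each pathway list, with its number of tested genes in parentheses, of log2 CPM minus the naive mean, in each naive (open) and EAE (filled) library. Phagocyte and Toll-like receptor lists lie to the right in all 3 EAE libraries, furthest in EAE library 2, and most metabolic and upkeep lists stay within 0.2 of naive.

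Developmental signalling gave single calls. Among 45 WNT genes, the receptor genes Fzd1 (0.72) and Fzd2 (0.80) rose and the ligand gene Wnt9a (-0.61) fell, with a median of -0.01. Wnt9a was at 22.1, 20.1 and 21.5 CPM in naive and at 15.5, 13.2 and 13.1 CPM in EAE. Notch signalling had Lfng, which modifies Notch receptors, called higher of 26 genes (14.7, 11.8 and 13.5 CPM in naive, 25.7, 31.8 and 25.9 CPM in EAE), with 21 members above 0. TGF-beta and BMP signalling (43 genes, median 0.15), BCL2 family genes and caspases (28, median 0.12), cytokine receptors and JAK-STAT (56, median 0.21) and leukocyte adhesion (21, median 0.30) had 0 calls with edgeR. Of these lists 12, 8, 20 and 7 genes had an unadjusted p under 0.05, DESeq2 called 6, 5, 11 and 3, and limma-voom called 0 in each.

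Channels and receptors were higher in 8 cases and lower in 1. Rtp1, counted among the 8, is itself no channel or receptor but a chaperone gene of olfactory receptors. It was at 0.492, 0.660 and 0.414 CPM in naive and at 11, 11.1 and 7.19 CPM in EAE. Trpv4, a cation channel of glia, vessels and choroid plexus, was at 1.23, 1.47 and 1.79 CPM in naive and at 6.55, 5.30 and 3.44 CPM in EAE. Lrrc8a, the volume-regulated anion channel gene, rose by 0.49, Kcnn2, a calcium-gated potassium channel gene, by 0.63, and Mc4r, the melanocortin receptor gene, by 2.01 on the log2 scale. The AMPA receptor subunit gene Gria4 fell by 0.41. For Trpv4, choroid plexus markers are given with the cell types and were highest in the same library, EAE library 1. Their part was not tested.

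The 7 called genes placed in the set of neuronal surface, adhesion and synapse were all lower. Channels and receptors, 8 higher with Rtp1 counted and 1 lower, were kept as a separate set after the calls were known. The shared direction may therefore depend on this division. Shisa4, which encodes a small membrane protein (chromosome 1, 135371057 to 135375298), was at 124, 124 and 116 CPM in naive and at 78.9, 78.8 and 80.2 CPM in EAE. Lingo1, a Nogo receptor partner that restrains axon growth and myelination (chromosome 9, 56618460 to 56796310), was at 354, 361 and 327 CPM in naive and at 261, 228 and 271 CPM in EAE. Car10 (-0.48), Flrt1 (-0.44), Megf11 (-0.39), Lin7b (-0.51) and the protocadherin isoform gene Pcdhgc5 (-0.52), which shares exons with others of its cluster, fell too. General markers of excitatory neurons had 0 of 8 called and a median of -0.16, with summed levels of 6268 to 7202 CPM in naive and 6551 to 6669 CPM in EAE. Axon guidance genes had 0 of 63 called with edgeR and a median of -0.09, with 15 at an unadjusted p under 0.05, 6 called by DESeq2 and 0 by limma-voom. For excitatory neurons these counts were 1, 0 and 0.

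Drug-metabolising enzymes were higher in 4 of 4 calls. Sult1a1, a sulfotransferase gene, was at 9.68, 8.65 and 9.44 CPM in naive and at 22.4, 25.8 and 22.8 CPM in EAE. Fmo2 (1.64), a monooxygenase gene, Ugt1a6a (2.44), which shares exons with other Ugt1a genes, and Cyp2d22 (0.68) rose too. The small heat shock genes Hspb1 (1.35) and Hspb8 (0.91) were called higher, as was Rbm3, a cold-inducible RNA-binding protein gene, at 75.4, 76.5 and 73.0 CPM in naive and 122, 112 and 110 CPM in EAE. Lsm5, of the RNA-binding LSm ring, was the one call in 26 Sm and LSm genes (-1.19).

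Grouping all tested genes by symbol stem, without regard to any list, gave 208 families of at least 10 genes. Only solute carriers (Slc, 301 genes, 3 higher and 1 lower), cytochromes P450 (Cyp, 30 genes, 2 and 1) and frizzled receptors (Fzd, 11 genes, 2 and 1, the lower being the antisense gene Fzd10os) had 3 or more calls. Over all tested genes 0.987% were called. The Slc count is near that share, and this large family stands here through its size. The highest family median was that of the interferon-inducible Ifi genes at 2.15, with 13 of 13 above 0 and 7 with EAE libraries above all naive ones, but with 0 calls with edgeR or limma-voom, 7 with DESeq2, and 10 at an unadjusted p under 0.05. Family members near 0 in naive, such as Ifi209, could pass the filter on low counts only through libraries where they are high. For such members, lying above 0 follows in part from the filter. Ifi209, of the DNA-sensing group, was at 0.0447, 0.183 and 0 CPM in naive and at 0.325, 3.72 and 1.53 CPM in EAE, and Ifi27 at 22.3, 22.4 and 22.7 CPM in naive and at 28.3, 34.8 and 29.7 CPM in EAE (edgeR adjusted p = 0.0982 and 0.0663). Next came Tlr (1.05, 2 of 10 called), Ly (0.58, 1 of 13 called), Ccl (0.48) and Clec (0.46), the last 2 with 0 edgeR or limma-voom calls, 2 DESeq2 calls each and 4 and 6 genes at an unadjusted p under 0.05.

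The lowest family medians were small beside these. They were those of Prss (serine proteases, -0.28), Pcdha and Pcdhga (clustered protocadherins, -0.25 and -0.23), Nat (-0.24) and Myh (myosin heavy chains, -0.22), with 0 edgeR calls in each. Their genes at an unadjusted p under 0.05 numbered 1, 4, 3, 5 and 3, those called by DESeq2 0, 2, 1, 2 and 0, and limma-voom called 0. The exocyst subunits (Exoc), which tether secretory vesicles, had 0 of 11 above 0 (median -0.22) and the synaptotagmins (Syt), calcium sensors of vesicle release, 3 of 16 (median -0.19). Both were singled out after their values were seen. Protocadherin isoforms share their last exons, so their values are not independent of each other. Ribosomal protein genes, also named after their values were seen, had small rises. Above 0 lay 46 of 50 Rpl genes (median 0.16) and 40 of 45 Rps genes (median 0.19). Every EAE library was above every naive one in 23 and 21 of them and below in 0, and Rps14 was called. Of the Rpl genes, 20 had an unadjusted p under 0.05, DESeq2 called 3 and limma-voom 0.

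Marker lists of cell types differed in their medians. Monocyte markers had the highest median, 2.66 over the 6 tested of 8 genes, with 1 called (S100a4). With at least 1 CPM required in 3 libraries, the median was 1.92. Markers near 0 in naive, such as Chil3, could pass the filter only through libraries where they are high. The size of this median therefore follows in part from the filter. Chil3, a monocyte product, was at 0.0223, 0.0733 and 0 CPM in naive and at 0.292, 0.485 and 11.8 CPM in EAE, and Lyz2, lysozyme, at 4.92, 4.58 and 5.34 CPM in naive and at 9.18, 37.8 and 95.5 CPM in EAE. Both were highest in EAE library 3, whereas border macrophage genes were highest in EAE library 2, where Mrc1, the mannose receptor gene, reached 13.2 CPM against 1.79 to 3.79 CPM in naive. Border macrophage markers had a median of 0.96 over 8 genes, with Stab1 called, and of 0.50 without EAE library 2.

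Microglia markers had 0 of 16 called with edgeR (4 at an unadjusted p under 0.05, 3 called by DESeq2, 0 by limma-voom) and a median of 0.31, which was 0.01 without EAE library 2. A complement gene and a homeostatic receptor gene lay on opposite sides of 0. C1qa was at 32.0, 31.6 and 24.9 CPM in naive and at 39.8, 93.1 and 58.0 CPM in EAE, while P2ry12 was at 29.6, 32.9 and 25.2 CPM in naive and at 18.7, 30.4 and 19.7 CPM in EAE. Neither was called (edgeR adjusted p = 0.142 and 0.531), and the difference between them was not tested.

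Few lymphocyte and granulocyte markers had enough counts to be tested. Of natural killer cell markers 0 of 7 and of mast cell markers 0 of 5 passed the filter, with Ncr1 and 4 mast cell genes at 0 in all libraries. T cell markers had 3 of 12 tested, 0 called by edgeR, DESeq2 or limma-voom and 0 at an unadjusted p under 0.05, and a median of -0.04, B cell markers 1 of 9 tested, and neutrophil markers 3 of 11, with Ly6g at 0. T cell markers summed to 21.7, 5.94 and 3.22 CPM in naive and to 11.3, 17.8 and 4.18 CPM in EAE. Most of this came from Cd4, a gene that myeloid cells can also express, at 19 CPM in naive library 1 and 12.9 CPM in EAE library 2. Striatal marker sums, given below with the tissue next to the cortex, were highest in the same library of each group, at 2773 and 2344 CPM. The part of such tissue in the Cd4 levels was not tested. Summed neutrophil markers were 7.99 to 12.5 CPM in naive and 11.2, 22.4 and 18.6 CPM in EAE. Dendritic cell markers summed to 27.5 to 35.0 CPM in naive and 25.9 to 34.1 CPM in EAE, with members on both sides of 0. Zbtb46 was called lower, at 17.2, 18 and 15.6 CPM in naive and at 12.6, 11.3 and 12.1 CPM in EAE, while Itgax, a marker of dendritic and other myeloid cells, was at 0.157, 0.0733 and 0.276 CPM in naive and at 0.357, 3.56 and 2.61 CPM in EAE (edgeR adjusted p = 0.0636). The median of the 4 tested dendritic cell markers was 0.37.

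Vessel and border cells came next. Endothelial markers had 0 of 18 called and a median of 0.25, or 0.08 without EAE library 2, with 8 of 18 wholly above naive and Kdr below. Vwf, von Willebrand factor, was at 20.9, 23.9 and 19.3 CPM in naive and at 40, 90.5 and 45.4 CPM in EAE. Pericyte markers had 0 of 10 called and a median of 0.19 with 9 above 0. Fibroblast markers had 11 of 11 above 0 and a median of 0.92, yet 0 calls, and their sum was 57.3 to 86.7 CPM in naive and 133, 191 and 81.0 CPM in EAE, so that EAE library 3 was within the naive range. For endothelium, pericytes and fibroblasts, 8, 2 and 4 markers had an unadjusted p under 0.05, DESeq2 called 6, 0 and 2, and limma-voom 0 in each.

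Red cell markers had the lowest median of the cell type lists, -3.33. All 6 tested genes had EAE libraries below naive ones and 3 were called. Their summed level was 153, 178 and 133 CPM in naive and 16.7, 23.8 and 7.38 CPM in EAE. Hbb-bs, a beta-globin gene, was at 47.1, 55.2 and 45.3 CPM in naive and at 4.80, 7.28 and 2.26 CPM in EAE, and the erythroid haem enzyme gene Alas2 at 2.30, 3.04 and 2.14 CPM in naive and at 0.195, 0.420 and 0.243 CPM in EAE (edgeR adjusted p = 0.0478 and 0.0600). Globin genes have near-identical copies, between which counts may be split. The sources used here do not say whether brains were perfused.

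Few genes of neurons and the oligodendrocyte lineage were called. No marker of upper layer, layer 4, layer 5 or layer 6 neurons, or of parvalbumin or somatostatin interneurons, was called with edgeR or limma-voom, and DESeq2 called 1 upper layer and 1 layer 6 marker. An unadjusted p under 0.05 was reached by 1, 1, 0, 2, 0 and 1 of their markers. Markers of vasoactive intestinal peptide interneurons had 4 of 6 genes with EAE libraries above naive ones and a median of 0.27. Vip itself was at 31.7, 31.6 and 32.6 CPM in naive and at 36.8, 37.0 and 44.9 CPM in EAE (log2 fold change 0.31, 95% interval 0.11 to 0.50, edgeR adjusted p = 0.131). Oligodendrocyte precursor markers had Cspg5 called lower of 9 (median 0.02), and mature oligodendrocyte markers 0 of 15 called by edgeR, DESeq2 or limma-voom and 0 at an unadjusted p under 0.05, a median of -0.30 and sums of 5146 to 7832 CPM in naive and 5501 to 6560 CPM in EAE.

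**Figure D4:**
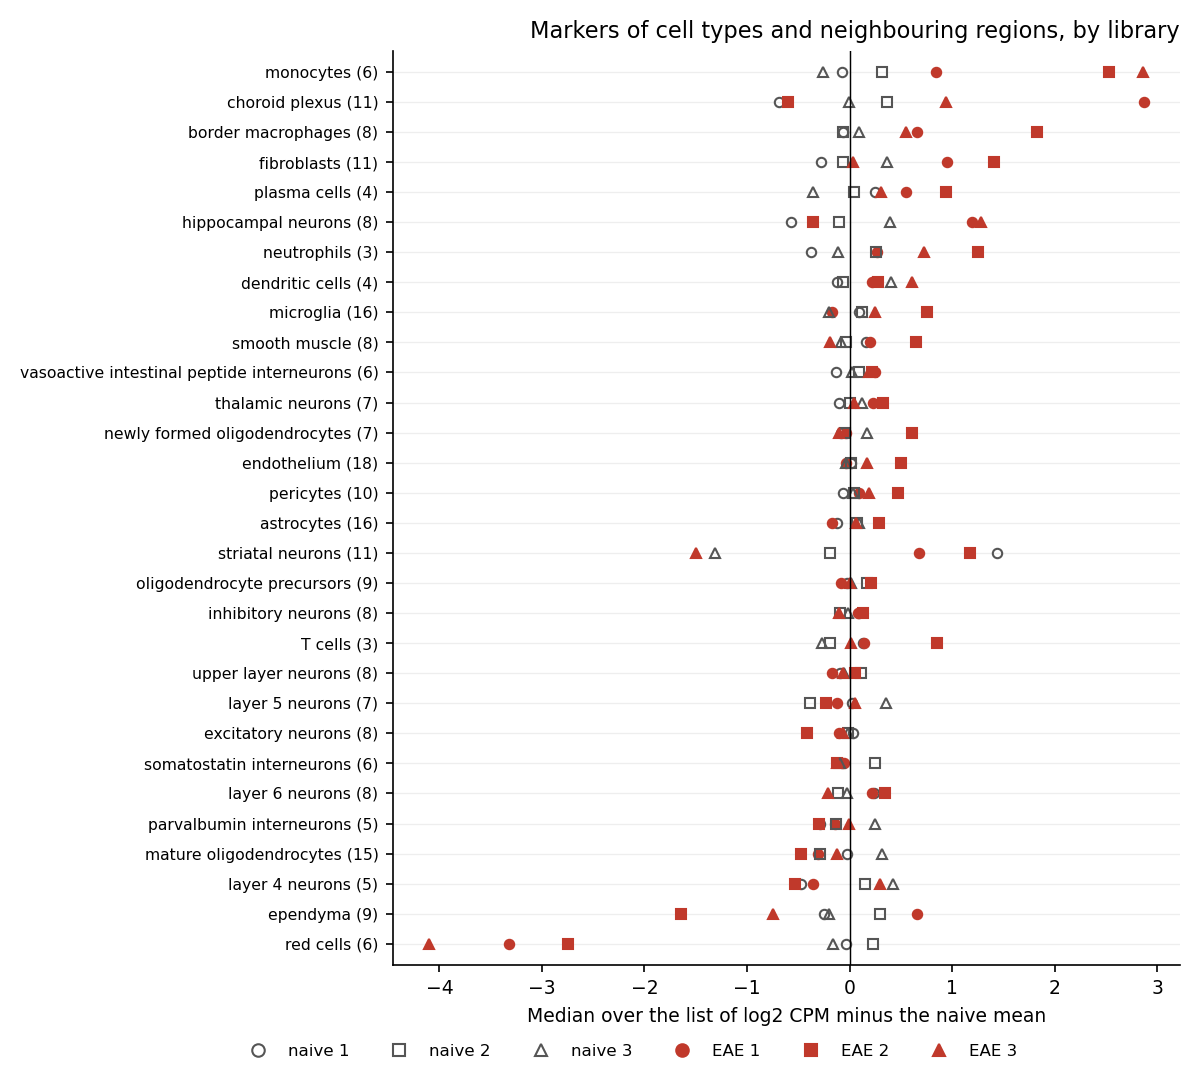
Median over each marker list, with its number of tested genes in parentheses, of log2 CPM minus the naive mean, in each naive (open) and EAE (filled) library. Red cell markers are low in all 3 EAE libraries and monocyte and border macrophage markers high in all 3, while choroid plexus, ependyma, hippocampal and striatal markers scatter within groups.

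Tissue next to the cortex varied between libraries within the groups. Choroid plexus markers summed to 14.1, 35.0 and 48.2 CPM in naive and to 919, 29.3 and 112 CPM in EAE, with a list median of 1.74 that was 0.70 without EAE library 1. Striatal markers summed to 2773, 986 and 483 CPM in naive and to 1623, 2344 and 494 CPM in EAE, a range as wide in one group as in the other. Hippocampal markers were at 40.2 to 81.3 CPM in naive and at 106, 34.6 and 109 CPM in EAE. Prkcd, a kinase gene and the one thalamic marker called, was at 13.1, 12.4 and 8.93 CPM in naive and at 30.4, 25.8 and 18.6 CPM in EAE, while thalamic markers summed to 80.0 to 110 CPM in naive and 110 to 119 CPM in EAE. The part of tissue next to the cortex in these results was not tested.

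The 3 EAE libraries differed in how far they had moved. On a scale for each called gene on which the naive mean of log2 CPM is 0 and the EAE mean is 1, EAE library 1 had a median position of 0.87 over the 137 genes called higher, EAE library 2 of 1.14 and EAE library 3 of 0.97. EAE library 1 had the smallest shift of the 3 in 80 of these genes and EAE library 2 the largest in 80. Over the 47 genes called lower the medians were 1.04, 1.02 and 0.95. The genes with the lowest position of EAE library 1 included Grn (0.53), Ctsh (0.54), Fn1 (0.58), Tlr13 (0.60) and Hk2 (0.60), and those with the highest included Prkcd (1.29), Hbb-b1 (1.28) and Cspg5 (1.28). Of the 590 genes with a log2 fold change above 1, EAE library 1 was at or under the highest naive library in 88, EAE library 2 in 36 and EAE library 3 in 90.

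**Figure D5:**
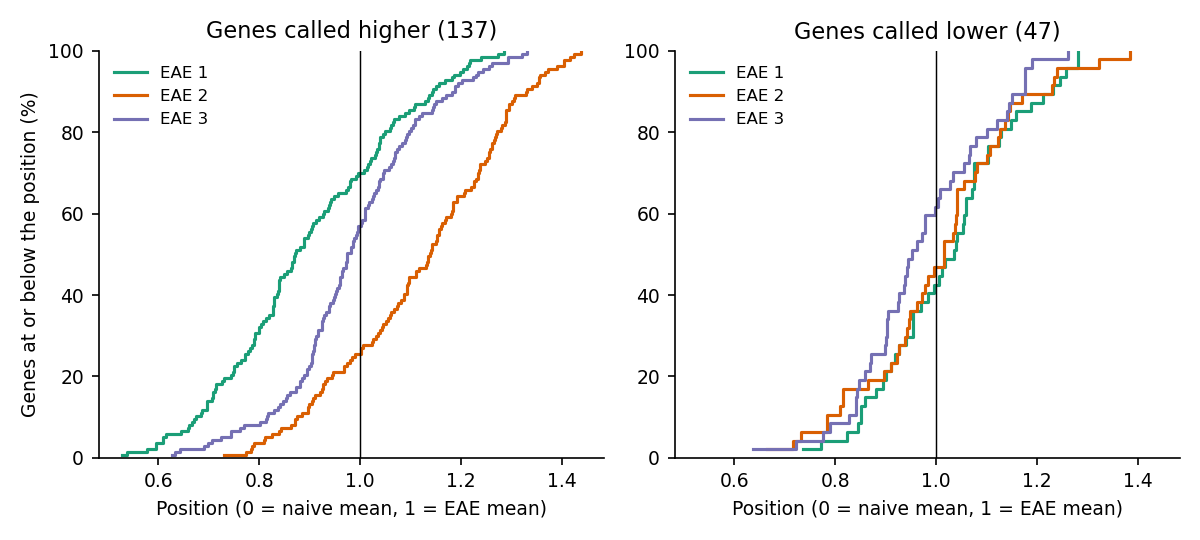
Cumulative share of called genes (vertical axis, percent) at or below each position of an EAE library, where 0 is the naive mean and 1 the EAE mean of log2 CPM. For the 137 genes called higher, the curve of EAE library 1 lies to the left (median 0.87) and that of EAE library 2 to the right (1.14). For the 47 called lower, the 3 curves run close together.

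A number of called genes stood in no list used here. Among genes with a role, Map3k6 (1.26), a stress-kinase gene, and Retsat (0.98), a retinol saturase gene, were higher. Of genes without an assigned role, Lrch4 (2.21), Plekhf1 (1.79), Ovgp1 (1.08), Galnt15 (1.87) and B4galt1 (0.94) rose, the last encoding a galactosyltransferase. Galnt15 was at 5.50, 4.73 and 5.17 CPM in naive and at 15.4, 24.7 and 16.3 CPM in EAE. Of lower genes, Hjv, a co-receptor gene of iron sensing, was at 1.5, 1.47 and 1.45 CPM in naive and at 0.454, 0.291 and 0.486 CPM in EAE, and Ywhaq, a 14-3-3 protein gene, at 295, 271 and 274 CPM in naive and at 219, 204 and 213 CPM in EAE. Septin11, a cytoskeletal GTPase gene, fell by 0.42 and Nek1, a kinase gene, by 0.44 on the log2 scale.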

How the data were processed

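RNA was sequenced from 9 mouse cortex samples, 3 in each of 3 groups, as poly(A) libraries per the labels' protocols. The authors deposited a table of raw read counts for 34714 gene symbols. The series' design text names Hisat2 for alignment and bowtie2 for quantification. The submitters' processing notes list fastp, FastQC 0.11.8 and mm10, which is GRCm38. The sources used here do not give annotation, strand setting or counting options. The other 9 columns fit no sample's labels and were left out. In every library, genes with 2 counts outnumbered genes with 1 count by 3.81 to 4.43 times, so that counts may exceed the number of fragments.

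The test was edgeR 4.0.16 in R 4.3.3 (filterByExpr, TMM factors, robust glmQLFit, glmQLFTest), fitted over all 9 libraries with the group as the only factor and the contrast of EAE with naive, adjusted by Benjamini and Hochberg over 18644 genes. Any adjusted p without another tool named is from this test. Standard errors are the size of the log2 fold change over the root of F, and intervals are 95% intervals from them. CPM use TMM factors. On counts simulated for this comparison over 18644 genes the fit called 54 of 100 genes changed by 1 and 84 of 100 changed by 2 on the log2 scale, and 18 of 18444 unchanged genes. The 18 are false calls, to be set beside the 54 and 84 true ones. Each gene was simulated independently with the spread that edgeR had estimated. Variation that many genes of a library share, as for the choroid plexus markers, is therefore not covered. Alternatives were DESeq2 1.42.0, limma-voom (limma 3.58.1), other scaling and filters, only 6 libraries, the replicate number as a block, and each library left out.

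The genes, the 33 cell type lists and the 44 pathway lists were chosen with earlier results of these data known. Lists are described by counts and medians, without a test. Named by rule were, in each direction, the 15 called genes with the smallest p and mean log2 CPM not below 0, the 10 with the smallest p in no list, up to 8 called members of a list or otherwise up to 3, the first 3 markers of a cell type, and the 5 called genes with the lowest and highest position of EAE library 1. Roles, other genes named for their role, and the uncalled genes set beside them were chosen after their values were seen. No symbol of the 15 mitochondrially encoded genes of one list was matched, and they were not analysed here. All 18644 tested symbols matched RefSeq for GRCm38.p6. Reads of genes that overlap cannot be assigned while the strand setting is unknown. By GENCODE M21, exons of Plin4, Rbm3, Hmgcs1, Idi1, Cebpd, Cebpa, Txnip, Grn, Stab1, Ucp2, Sult1a1, Ms4a6c, Retsat, Slc2a1, Fn1, Heph, Tob2, Smpd2, Cyp51, P2ry12, Srebf1, Slc16a7, Kcnn2, Lin7b, Ywhaq and Ahr overlap other genes on the opposite strand, and those of Lrch4, Phyhd1, Ovgp1, Lrrc8a, S100a4, Gria4, Pcdhgc5, Ugt1a6a and Nek1 on the same strand.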

Additional observations from a re-analysis of the deposited data

How the results depend on the processing

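Of the alternatives run, DESeq2 gave the most calls, 704 higher, 347 lower and 330 with an absolute log2 fold change above 1 (1051 of 18513 genes with an adjusted p), and limma-voom 95, 27 and 52 against 137, 47 and 81. Leaving out 1 library gave 2 to 234 genes higher, 0 to 18 lower and 2 to 177 past a log2 fold change of 1. Groups did not overlap in 4479 genes and, with 1 library left out, in 6041 to 6719, the most without naive library 2, where fewer samples had to separate. The labels do not say that the numbers pair the samples, so pairing was used only as an alternative. Between the EAE and naive libraries of the same number, deviations from the group means correlated at 0.05, 0.11 and 0.36. Between EAE and treated libraries they correlated at 0.17, 0.24 and 0.24 and between naive and treated ones at -0.25, -0.12 and 0.20. Libraries of unlike numbers were not set beside these, so the values do not decide whether the numbers pair the samples. With a replicate block 180 genes were higher and 58 lower, of which 153 were among the 184. All 184 called genes kept their direction in every alternative that held them, which follows largely from how they were chosen. Of 74 lists, 50 kept the sign of their median in all 14 alternatives. The sign of the others turned in at least 1 alternative, among them dendritic cells (0.37, lowest -0.18), B cells (0.28, lowest -0.15), smooth muscle (0.28, lowest -0.03), ependyma (-0.36, highest 0.06), layer 6 (-0.19, highest 0.55), striatal neurons, astrocytes, proteasome, autophagy and WNT signalling. With 3 libraries a group, genes under 1 CPM had a median SE of 0.45 against 0.0958 at 16 to 64 CPM, so that changes of a log2 fold below 1 were hard to detect there.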
